A study of Mus musculus with 6 samples.

Results

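The collagens and laminins of the islet matrix were taken as every row of the deposited gene table whose symbol is a numbered collagen alpha chain or a numbered laminin alpha, beta or gamma chain. The rule gave 55 genes of 34245. They were divided into 19 basement membrane genes (collagen IV, Col15a1, Col18a1 and the laminins), 11 fibrillar collagens and 25 other collagens. The islets came from C57BL/6J mice aged 5 weeks. In the KO group (3 libraries) a conditional floxed Abca12 allele, named Abca12 tm1d once recombined, had been deleted by Rip1-Cre. In the HET group (3 libraries) the mice were heterozygous for the floxed allele and also carried Rip1-Cre. All 6 libraries thus come from Cre carriers, and no library without Cre or without a floxed allele was in the comparison. Rip1-Cre is driven by the rat insulin promoter and acts in beta cells, so deletion is not aimed at the endothelial, mesenchymal, ductal or neural cells of an islet preparation. Poly(A) RNA of whole islets was sequenced, and the comparison asks what loss of this lipid transporter in beta cells changes in islet RNA.

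Basement membranes are thin sheets on which epithelia, capillaries, muscle and nerve rest. Collagen IV chains join as trimers into a network, and laminins, each a trimer of an alpha, a beta and a gamma chain, form a second network bound to cells through integrins and dystroglycan. Fibrillar collagens form the cable-like fibres of interstitial tissue and are made mainly by fibroblasts and related mesenchymal cells. In mouse islets the beta cells themselves make little basement membrane, and the capillary endothelium is known as its main source. In whole-islet RNA, fewer cells of a type and less RNA per cell cannot be told apart.

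The totals behind the deposited values were 27447033 to 35511009 reads per library, so that 3 reads, the limit that a count of 0 allows, equal 0.0845 to 0.109 RPM (a gene's reads scaled to a common library total), with counting error alone covered. The label was checked against hormone genes. Ins1, Ins2, Gcg, Sst and Ppy were present in all 6 libraries, with Ins2 at 63779 to 85827 RPM. Abca12 had 2 reads in KO 1 and 0 in the other 5 libraries, which leaves no check of genotype. The library KO 2 held both Xist (13659 reads) and the Y-linked gene Ddx3y (1481 reads), whereas in each of the other libraries one of these genes had at most 5 reads. The KO to HET class sums and the direction over all members are therefore also given without KO 2, and the other summaries include it. Each title carries an animal code. The libraries with the higher codes (KO 3, HET 2 and HET 3) and with the lower codes (KO 1, KO 2 and HET 1) stood apart across the whole table. All 3 libraries of one set lay above all 3 of the other for 6849 of 14238 genes, 48.1%. The labels do not say what an animal code stands for. Acinar markers, from digestive enzyme cells that can be carried along with islets, summed to 3063, 11539 and 781 RPM in KO 1 to 3, against 27966, 686 and 390.5 RPM in HET 1 to 3. They were thus highest in HET 1 and KO 2 and lower in each higher-code library than in any lower-code one.

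Promoter windows are shown for genes whose levels carry the results below. They are the collagen IV pairs that start next to each other on opposite strands, the basement membrane genes Lamb2 and Col18a1, whose levels moved in opposite directions between libraries, and Col6a6, the most abundant collagen outside collagen IV. The sequences are from RefSeq, build GRCm38.p6, and run from 250 bases before to 50 after the start of transcription, 5′ to 3′ on the strand named; 40 of the 55 genes had a window. Capitals mark exact matches on either strand to the GC box, spelled GGGCGG, the CCAAT box, spelled as its name, the TATA box, spelled TATAAA, or the CTC box of collagen IV promoters, spelled CCCTCCCC. No matches overlap in these windows.
Col4a2 (chr8:11312555-11312854, + strand): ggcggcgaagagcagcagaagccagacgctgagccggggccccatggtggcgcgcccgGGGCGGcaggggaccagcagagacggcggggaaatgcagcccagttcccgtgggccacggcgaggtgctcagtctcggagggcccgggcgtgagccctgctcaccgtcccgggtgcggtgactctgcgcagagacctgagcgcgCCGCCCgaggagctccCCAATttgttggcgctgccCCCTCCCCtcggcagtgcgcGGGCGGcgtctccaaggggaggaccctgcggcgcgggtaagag
Col4a4 (chr1:82586800-82587099, - strand): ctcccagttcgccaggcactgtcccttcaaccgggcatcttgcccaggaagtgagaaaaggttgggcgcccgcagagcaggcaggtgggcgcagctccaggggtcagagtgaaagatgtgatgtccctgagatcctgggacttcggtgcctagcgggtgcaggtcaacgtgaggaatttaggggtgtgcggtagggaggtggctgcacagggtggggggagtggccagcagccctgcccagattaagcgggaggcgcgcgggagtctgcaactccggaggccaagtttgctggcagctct
Lamb2 (chr9:108479612-108479911, + strand): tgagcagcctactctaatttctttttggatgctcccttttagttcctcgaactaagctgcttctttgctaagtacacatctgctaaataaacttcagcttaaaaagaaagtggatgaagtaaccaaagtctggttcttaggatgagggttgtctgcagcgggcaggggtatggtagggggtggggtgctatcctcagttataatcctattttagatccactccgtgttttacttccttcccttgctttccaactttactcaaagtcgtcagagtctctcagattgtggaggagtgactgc
Col18a1 (chr10:77166481-77166780, - strand): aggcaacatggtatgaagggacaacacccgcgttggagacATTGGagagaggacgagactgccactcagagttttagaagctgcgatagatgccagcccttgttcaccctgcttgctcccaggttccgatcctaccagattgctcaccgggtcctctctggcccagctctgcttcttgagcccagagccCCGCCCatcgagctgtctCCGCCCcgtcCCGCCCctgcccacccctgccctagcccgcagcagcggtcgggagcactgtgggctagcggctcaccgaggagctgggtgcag
Col6a6 (chr9:105828036-105828335, - strand): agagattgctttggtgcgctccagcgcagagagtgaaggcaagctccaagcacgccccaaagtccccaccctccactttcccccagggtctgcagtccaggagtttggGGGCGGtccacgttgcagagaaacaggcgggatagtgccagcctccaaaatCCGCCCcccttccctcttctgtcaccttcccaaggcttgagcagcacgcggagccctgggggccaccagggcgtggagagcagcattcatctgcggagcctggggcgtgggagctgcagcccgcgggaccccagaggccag

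The Col4a2 window also holds the start of Col4a1, which is transcribed from the other strand; the 2 starts lie 21 bases apart and the transcripts overlap by 22 bases. It held 3 GC box matches, 1 CCAAT match and 1 CTC box match. The Col4a4 window likewise holds the start of Col4a3, 72 bases away on the other strand, and held none of the 4 motifs, nor did the Lamb2 window. The Col18a1 window shown held 3 GC box matches and 1 CCAAT match, whereas a second window of this gene, at chr10:77113656-77113955, held none of the 4 motifs. At Col6a6, the window held 2 GC box matches. Of 32851 promoter windows of the same length, 35.7% held the GC box, 37.4% the CCAAT box, 13.6% the TATA box and 10.8% the CTC box. A match says only that these letters occur in the window.

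Basement membrane genes held most of the collagen and laminin reads of these islets. Basement membrane genes held 62.5%, 57.5% and 66.5% of the reads of all 55 genes in KO 1 to 3, against 58.6%, 66.3% and 68.0% in HET 1 to 3. Fibrillar collagens held 14.0%, 20.7% and 9.76% in KO 1 to 3, against 21.6%, 9.43% and 10.3% in HET 1 to 3. Compared per kilobase of exon, the mean level over all libraries was highest for Col4a1 (16.01 RPM per kb) and Col4a2 (11.8), the chains of the collagen IV trimer found in nearly all basement membranes. Col6a6 followed at 8.36 RPM per kb, Lamc1 at 4.99, Col15a1 at 2.88 and Col5a2 at 2.42. The first 4 kept their order when the length of the transcript with the longest coding sequence was used in place of all exons joined. At the other end, Col9a1, Col17a1 and Col24a1 had mean levels under 0.03 RPM, and 2 genes had at most 3 reads in every library. In all, 34 of the 55 genes had a mean of at least 1 RPM and entered the test.

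**Figure D1:**
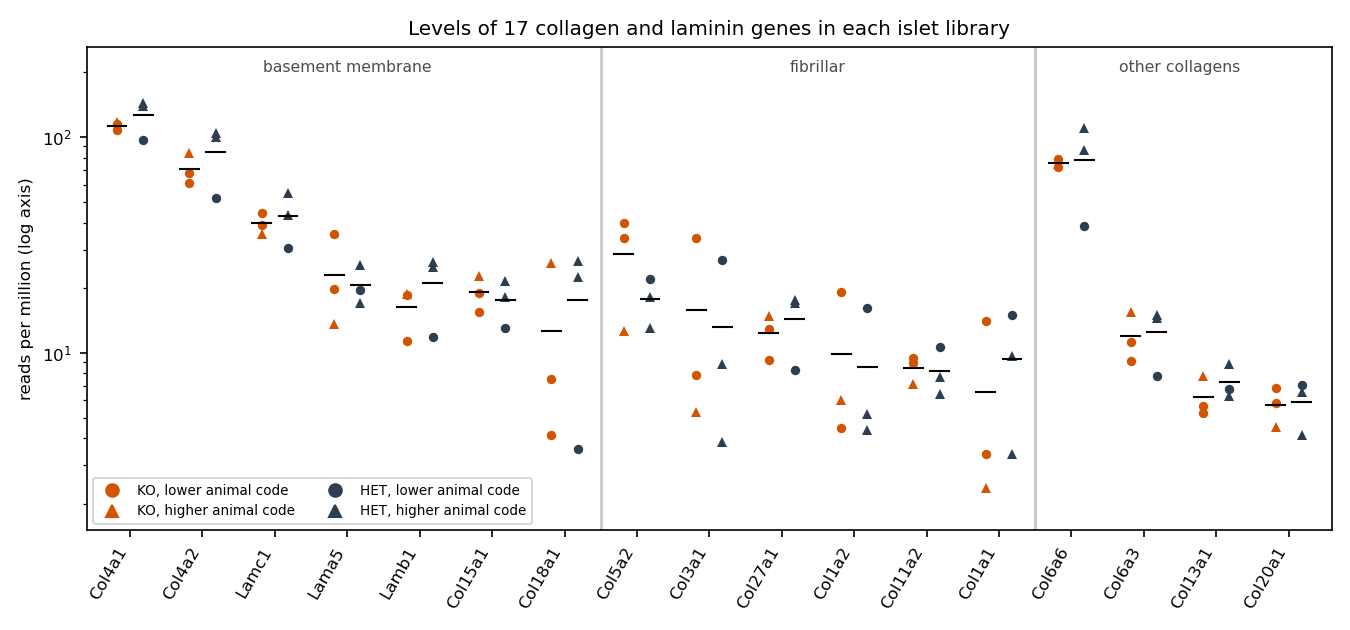
Level in RPM (log axis) of 17 collagen and laminin genes, 7 basement membrane, 6 fibrillar and 4 other collagen genes among those with the highest means; points are single libraries, KO left of HET, with circles for lower and triangles for higher animal codes, and bars are group means of 3 libraries. KO and HET points overlap for every gene shown, and for Col18a1 the triangles of both genotypes lie above all circles.

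No collagen or laminin tested differed between KO and HET islets beyond the spread of the libraries. Of 34 genes tested by limma's moderated test on log2(RPM + 1), 0 passed an adjusted p of 0.05 and 0 had an unadjusted p under 0.05, by limma-voom on recovered reads as well. Over all 14238 genes tested, 0% passed and 1.76% had an unadjusted p under 0.05. Of the 34 genes, 19 had higher and 15 lower means in KO, with a median log2 difference of 0.07. Of all genes 51.4% had higher means in KO, with a median of 0.01. KO and HET libraries did not overlap for 1 of the 34, against 5.74% of all genes tested. Basement membrane genes summed to 313, 389.7 and 357 RPM in KO 1 to 3, against 278, 431 and 446 RPM in HET 1 to 3. Fibrillar collagens summed to 70.3, 140.1 and 52.5 RPM in KO 1 to 3, against 102, 61.2 and 67.5 RPM in HET 1 to 3, and KO 2 and HET 1 held the highest sums of their groups. The KO to HET ratio of mean sums was 0.918 for basement membrane genes, 1.14 for fibrillar collagens and 0.999 for the other collagens. On the log2 scale the basement membrane ratio was -0.12, and -0.20 without KO 2. The fibrillar ratio was 0.19, and -0.33 without KO 2. The direction over all members turned without that library, with 9 of 33 genes higher in KO and a median log2 difference of -0.16. Of all genes 51.9% were then higher, with a median of 0.01. For basement membrane genes 3 of 14 were then higher, with a median of -0.17. The direction over all members also turned with the mean log2(RPM + 1) of the stellate, pericyte and fibroblast markers as a covariate (the stellate covariate). In that fit 11 of 34 were higher, with a median of -0.14, against 58.6% of all genes and a median of 0.06. With the animal codes as a block, 17 of 34 were higher, against 60.1% of all genes.

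**Figure D2:**
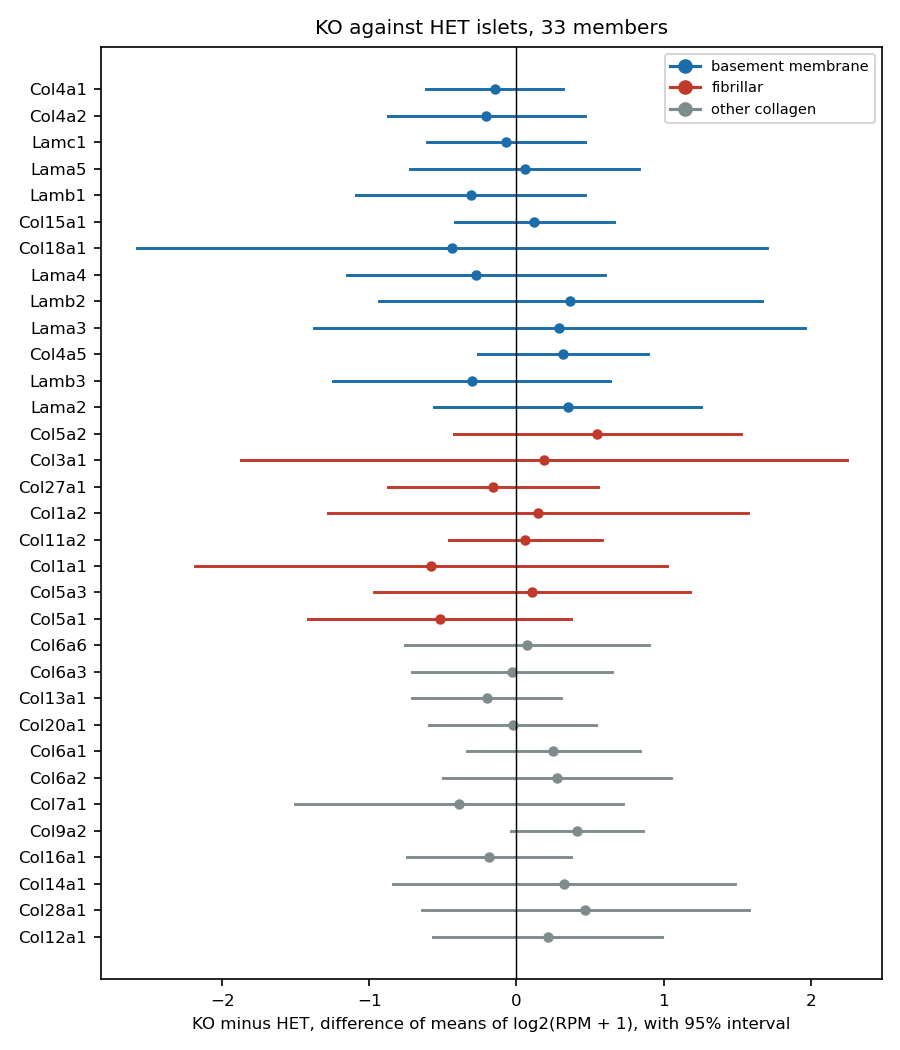
KO minus HET difference of the means of log2(RPM + 1) for 33 of the 34 genes tested, with the 95% interval from limma (n = 3 each), ordered by class and mean level. Every interval includes 0, and the widest belong to Col18a1 and Col3a1.

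The main chains of collagen IV did not separate KO from HET libraries. Col4a1 (ENSMUSG00000031502.11, chromosome 8, 11198423 to 11312826, GRCm38) had 107, 113.9 and 116 RPM in KO 1 to 3, against 96.5, 139 and 144 RPM in HET 1 to 3. Its KO libraries lay between HET 1 and the other HET libraries, and the log2 difference was -0.15 (95% interval -0.61 to 0.32). Col4a2 (ENSMUSG00000031503.13, chromosome 8, 11312805 to 11449287) had 61.1, 67.96 and 84.4 RPM in KO 1 to 3, against 52.05, 99.4 and 104 RPM in HET 1 to 3, a log2 difference of -0.20 (95% interval -0.87 to 0.46). Both genes were lowest in HET 1 and highest in HET 3. Per kilobase, Col4a1 exceeded Col4a2 in every library, with a ratio of 1.56, 1.49 and 1.22 in KO 1 to 3, against 1.64, 1.24 and 1.23 in HET 1 to 3. The ratio was thus nearer to 1 in the higher-code libraries, KO 3 at 1.22 among them. The remaining collagen IV chains, which form the specialised networks of kidney, lung and smooth muscle, were scarce. Col4a5 had 2.54, 5.01 and 2.70 RPM in KO 1 to 3, against 2.46, 2.20 and 2.68 RPM in HET 1 to 3, a log2 difference of 0.32 (95% interval -0.26 to 0.89), and KO 2 stood above the rest. Col4a3, Col4a4 and Col4a6 had means under 1 RPM and were not tested.

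Laminin chains of capillary and general basement membranes were present together with chains of epithelial laminin. Lamc1, the gamma chain of most laminins (ENSMUSG00000026478.14, chromosome 1, 153218922 to 153332786), had 39.1, 44.5 and 35.5 RPM in KO 1 to 3, against 30.5, 54.8 and 43.1 RPM in HET 1 to 3, a log2 difference of -0.07 (95% interval -0.61 to 0.47). Lama5, an alpha chain of many adult basement membranes, had 19.6, 35.5 and 13.5 RPM in KO 1 to 3, against 19.5, 16.9 and 25.5 RPM in HET 1 to 3, a log2 difference of 0.06 (95% interval -0.73 to 0.84). Lamb1, a beta chain of endothelial and epithelial laminins, had 11.3, 18.5 and 18.8 RPM in KO 1 to 3, against 11.8, 24.9 and 26.2 RPM in HET 1 to 3, a log2 difference of -0.31 (95% interval -1.09 to 0.47). In each of these genes the ranges of KO and HET libraries overlapped. Lama4, the alpha chain of endothelial laminin, differed by -0.28, Lamb3 by -0.31, Lama2 by 0.35, Lama3 by 0.29 and Lamb2 by 0.37 on the log2 scale. Lama1 and Lamc3 had means under 1 RPM.

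Col15a1 and Col18a1, the multiplexin collagens that carry heparan or chondroitin sulphate chains in basement membranes, differed from each other in spread. Col15a1 (ENSMUSG00000028339.17, chromosome 4, 47208161 to 47313167) had 15.5, 18.9 and 22.6 RPM in KO 1 to 3, against 12.96, 18.2 and 21.5 RPM in HET 1 to 3, a log2 difference of 0.12 (95% interval -0.42 to 0.66). Col18a1 (ENSMUSG00000001435.15, chromosome 10, 77052178 to 77166548), the precursor of endostatin, had 4.15, 7.53 and 25.98 RPM in KO 1 to 3, against 3.59, 22.3 and 26.6 RPM in HET 1 to 3. KO 3 thus lay with HET 2 and HET 3, and KO 1 and KO 2 lay with HET 1, so the genotypes overlapped. Its log2 difference was -0.44 (95% interval -2.58 to 1.71), and 0.09 within the higher codes and 0.53 within the lower codes.

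Several fibrillar collagens varied widely between libraries of the same genotype, and none passed the test. Col5a2, a minor chain that sets fibril diameter (ENSMUSG00000026042.16, chromosome 1, 45374321 to 45503282), was the most abundant of them, with 33.9, 39.7 and 12.6 RPM in KO 1 to 3, against 21.98, 18.1 and 13.03 RPM in HET 1 to 3. Its log2 difference was 0.55 (95% interval -0.43 to 1.53), with KO 3 below all 3 HET libraries and KO 1 and KO 2 above them. Col3a1, the chain of type III fibrils, lies next to Col5a2 on chromosome 1 (45311538 to 45349706) and had 7.85, 34.03 and 5.28 RPM in KO 1 to 3, against 26.7, 3.86 and 8.81 RPM in HET 1 to 3. Col1a1 and Col1a2 encode the chains of type I collagen. Col1a1 had 3.39, 13.99 and 2.37 RPM in KO 1 to 3, against 15, 3.38 and 9.62 RPM in HET 1 to 3, and Col1a2 had 4.49, 19.1 and 6.05 RPM in KO 1 to 3, against 16.1, 4.39 and 5.22 RPM in HET 1 to 3. KO 2 and HET 1 were the highest libraries for all 3 genes. These are also the libraries with the most acinar RNA, whose part in these levels was not tested. The log2 differences were 0.19 (95% interval -1.87 to 2.24) for Col3a1, -0.58 (95% interval -2.18 to 1.02) for Col1a1 and 0.15 (95% interval -1.28 to 1.58) for Col1a2. Without KO 2, the differences of Col3a1, Col1a1 and Col1a2 were -0.56, -1.24 and -0.42. The Col1a1 difference stayed negative in every alternative fit, at -1.24 to -0.16 with each library left out in turn. With the animal codes as a block it was -0.999. With the stellate covariate it was -1.75, with an unadjusted p of 0.00996 and an adjusted p of 0.969 by limma. That p is not particular to Col1a1, as 6 of 34 members had an unadjusted p under 0.05 in this fit, against 474 of 14238 genes. The others were Lamb3, Lama3, Col5a1, Col7a1 and Col14a1, all with negative differences as well. The KO and HET libraries of Col1a1 overlapped.

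The remaining fibrillar genes included steadier ones. Col11a2, a minor fibrillar chain best known from cartilage, had 9.46, 8.91 and 7.14 RPM in KO 1 to 3, against 10.6, 7.69 and 6.42 RPM in HET 1 to 3, a log2 difference of 0.06 (95% interval -0.46 to 0.58). Col27a1, a fibrillar collagen of developing cartilage, had 9.25, 12.8 and 14.8 RPM in KO 1 to 3, against 8.34, 16.98 and 17.5 RPM in HET 1 to 3, a log2 difference of -0.16 (95% interval -0.87 to 0.56). Neither separated KO from HET libraries. Col5a1 and Col5a3 had log2 differences of -0.52 and 0.11. Col2a1, Col11a1 and Col24a1 had means under 1 RPM.

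Outside these classes, Col6a6 stood out by its level. Col6a6, a chain of the beaded filament collagen VI (ENSMUSG00000043719.14, chromosome 9, 105687809 to 105828160), had 72.5, 78.6 and 74.7 RPM in KO 1 to 3, against 38.4, 109 and 86.5 RPM in HET 1 to 3, a log2 difference of 0.07 (95% interval -0.76 to 0.90). HET 1 was lowest and HET 2 highest, with all KO libraries between them. Its neighbours Col6a5 and Col6a4, on the same strand, had means of only 0.165 and 0.314 RPM. Col6a1 and Col6a2, which pair with a further alpha chain in the collagen VI monomer, had 4.41 and 4.08 RPM. Per kilobase, the ratio of Col6a6 to Col6a1 was 9.19, 6.00 and 7.77 in KO 1 to 3, against 3.42, 16.6 and 12.3 in HET 1 to 3. Col6a3, the usual further chain, had 9.15, 11.2 and 15.4 RPM in KO 1 to 3, against 7.79, 14.5 and 14.9 RPM in HET 1 to 3, a log2 difference of -0.03 (95% interval -0.71 to 0.65).

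Col13a1, a transmembrane collagen of adhesion sites and the neuromuscular junction, had 5.65, 5.25 and 7.80 RPM in KO 1 to 3, against 6.76, 6.31 and 8.84 RPM in HET 1 to 3, a log2 difference of -0.20 (95% interval -0.71 to 0.30). Col20a1 had 5.82, 6.86 and 4.52 RPM in KO 1 to 3, against 7.05, 4.14 and 6.54 RPM in HET 1 to 3, a log2 difference of -0.03 (95% interval -0.59 to 0.54). The genotype groups overlapped for both. Col9a2, a chain of the fibril-associated collagen IX, was the 1 gene of 34 whose KO and HET libraries did not overlap; it and Col7a1 were chosen after their values were seen. Col9a2 had 3.73, 4.07 and 4.52 RPM in KO 1 to 3, against 2.36, 2.76 and 3.44 RPM in HET 1 to 3, a log2 difference of 0.41 (95% interval -0.04 to 0.86), with an adjusted p of 0.9998 by limma. With the animal codes as a block its unadjusted p was 0.0189 and its adjusted p 0.846 by limma. Col7a1, the anchoring fibril collagen of skin, had 2.30, 4.77 and 1.68 RPM in KO 1 to 3, against 8.66, 1.97 and 2.99 RPM in HET 1 to 3, and with the block an unadjusted p of 0.0228 and an adjusted p of 0.870 by limma. Of all genes, 5.39% had an unadjusted p under 0.05 with the block, against 2 of these 34. Among the remaining collagens tested, Col6a1, Col6a2, Col12a1, Col14a1, Col16a1 and Col28a1 had log2 differences between -0.19 and 0.47.

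Genotype differences were also taken within each set of animal codes, and 10 of 14 basement membrane genes had opposite signs between the sets, against 5 of 8 fibrillar and 8 of 12 other collagens. Within the higher codes, 3 of 14 had a higher value in KO 3 than the mean of HET 2 and HET 3, with a median log2 difference of -0.34, against 49.96% of all genes and a median of -0.0002. Within the lower codes, 13 of 14 had a higher mean in KO 1 and KO 2 than in HET 1, with a median of 0.29, against 64.9% of all genes and a median of 0.10. Each of these rests on a lone library on one side, KO 3 in the first and HET 1 in the second, so no test was made. For Col4a1 the values were -0.28 within the higher codes and 0.19 within the lower codes, and for Lamc1 -0.44 within the higher codes and 0.44 within the lower codes. Over all 34 genes, 23 had opposite signs between the higher and the lower codes. The share of all genes with opposite signs was not computed, so these opposite-sign counts are no result about the members.

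Levels differed more between the higher and the lower animal codes than between genotypes. The libraries of the higher and the lower codes did not overlap for 14 of 34 genes (41.2%), with the higher codes above for 6 and below for 8. This share is near the background of 48.1% of all genes tested, of which 31.3% had the higher codes above and 16.8% below, so it is no result about the members. The median absolute log2 difference between the code sets was 0.63 for the 34 genes and 0.32 over all genes, and between genotypes it was 0.23 and 0.15. The split was known from earlier results of these data, so these values are a description with no test. Both genotypes stand on each side.

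**Figure D3:**
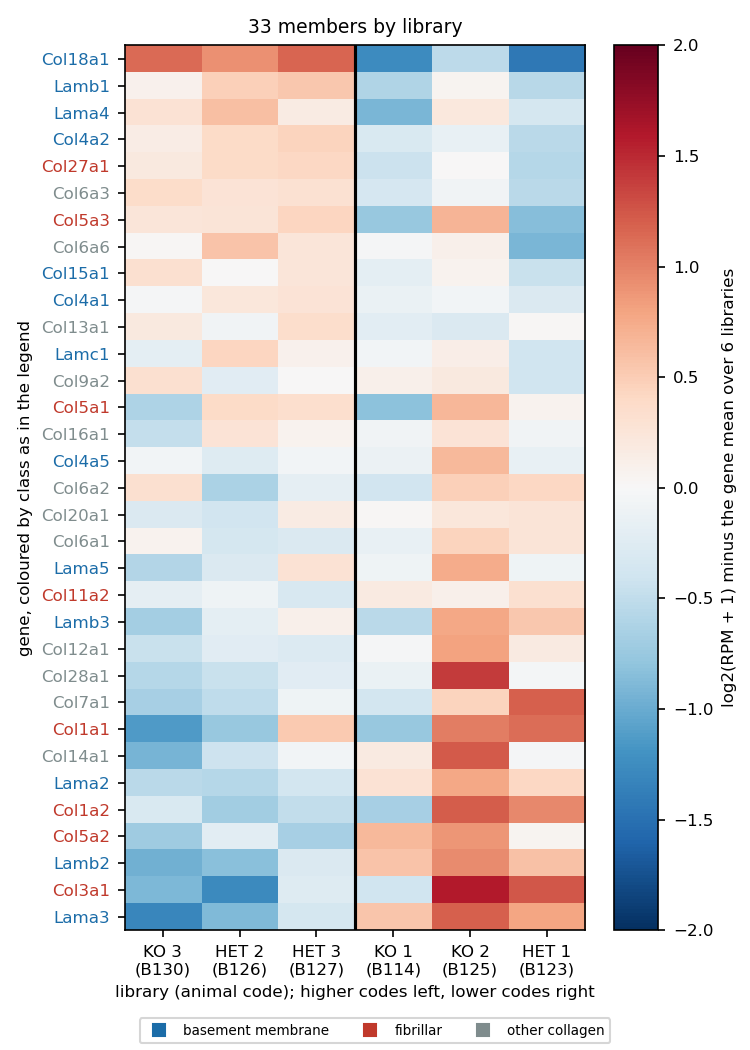
log2(RPM + 1) of 33 of the 34 genes tested minus each gene's mean over the 6 libraries, with the higher animal codes left and the lower codes right; rows are ordered by the difference between them and names are coloured by class. Col18a1, Lamb1 and Lama4 head the rows and Lamb2, Col3a1 and Lama3 end them, and for Col3a1, Col1a1 and Col1a2 the highest values are those of KO 2 and HET 1.

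Among genes higher with the higher codes, Col18a1 differed most. Its level was 25.98, 22.3 and 26.6 RPM in the higher-code libraries (KO 3, HET 2 and HET 3), against 4.15, 7.53 and 3.59 RPM in the lower-code libraries (KO 1, KO 2 and HET 1), a 4.90-fold ratio of means. Lamb1 had 18.8, 24.9 and 26.2 RPM in KO 3, HET 2 and HET 3, against 11.3, 18.5 and 11.8 RPM in KO 1, KO 2 and HET 1. Col4a1, Col4a2, Col27a1 and Col6a3 also had all higher-code libraries above the lower-code ones, with ratios of 1.26, 1.59, 1.62 and 1.59. For Lamb1 the lowest higher-code library, KO 3, and the highest lower-code one, KO 2, were close.

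Other chains of the same families were lower with the higher codes. Lamb2, the beta chain of neuromuscular and vascular smooth muscle laminins, had 3.02, 3.38 and 5.37 RPM in KO 3, HET 2 and HET 3, against 10.6, 13.99 and 10.7 RPM in KO 1, KO 2 and HET 1. Lama3, an alpha chain of epithelial laminin, had 1.09, 1.80 and 3.08 RPM in KO 3, HET 2 and HET 3, against 6.58, 10.8 and 7.95 RPM in KO 1, KO 2 and HET 1. Lama2, the alpha chain of muscle and Schwann cell laminin, had 1.38, 1.32 and 1.69 RPM in KO 3, HET 2 and HET 3, against 3.22, 4.91 and 3.62 RPM in KO 1, KO 2 and HET 1. For each of them every higher-code library lay below every lower-code one. The same held for Col5a2, Col11a2, Col12a1, Col14a1 and Col28a1. Among genes too scarce for the test, Col4a3, Col4a4, Lamc3 and Col23a1 showed it too. Col26a1, Col8a2 and Lama1, also too scarce, had every higher-code library above instead. Few reads stand behind these levels: in KO 3, HET 2 and HET 3, Col4a3 had 6, 13 and 13 reads and Col4a4 14, 9 and 19. Part of the Col4a3 reads lies over exons of an opposite-strand gene or cannot be told from it. Col4a3 had 0.219, 0.366 and 0.392 RPM in KO 3, HET 2 and HET 3, against 1.37, 2.08 and 1.45 RPM in KO 1, KO 2 and HET 1, and Col4a4 had 0.510, 0.253 and 0.573 RPM in KO 3, HET 2 and HET 3, against 0.788, 1.85 and 1.07 RPM in KO 1, KO 2 and HET 1.

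The balance of laminin chains differed between libraries. Per kilobase, Lamb1 made up 73.6%, 74.2% and 66.9% in KO 3, HET 2 and HET 3, against 36.7%, 37.8% and 33.2% in KO 1, KO 2 and HET 1. Lamb2 made up 19.3%, 16.4% and 22.3% in KO 3, HET 2 and HET 3, against 56.2%, 46.7% and 49.2% in KO 1, KO 2 and HET 1. The ratio of Lamb1 to Lamb2 was 3.81, 4.52 and 2.99 in the higher-code libraries, against 0.653, 0.811 and 0.674 in the lower-code libraries. Which chain was higher in the lower-code libraries depended on the length used. With the length of the transcript with the longest coding sequence the ratio was 1.04 to 7.18, above 1 in every library, with a mean of 3.56 against 2.24 with all exons joined. Among alpha chains, Lama4 made up 40.9%, 41.2% and 25.1% in KO 3, HET 2 and HET 3, against 12.9%, 17.2% and 18.2% in KO 1, KO 2 and HET 1, and Lama3 4.26%, 5.60% and 8.05% in KO 3, HET 2 and HET 3, against 20.98%, 18.8% and 22.6% in KO 1, KO 2 and HET 1. Lama5 held between 49.6% and 63.1% of the alpha chains in every library, but with the length of the transcript with the longest coding sequence its share was 34.7% to 49.97%, that of Lama4 reaching 57.4%. The ratio of Col18a1 to Col15a1 was 1.04, 1.11 and 1.12 in the higher-code libraries, against 0.242, 0.360 and 0.250 in the lower-code libraries.

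**Figure D4:**
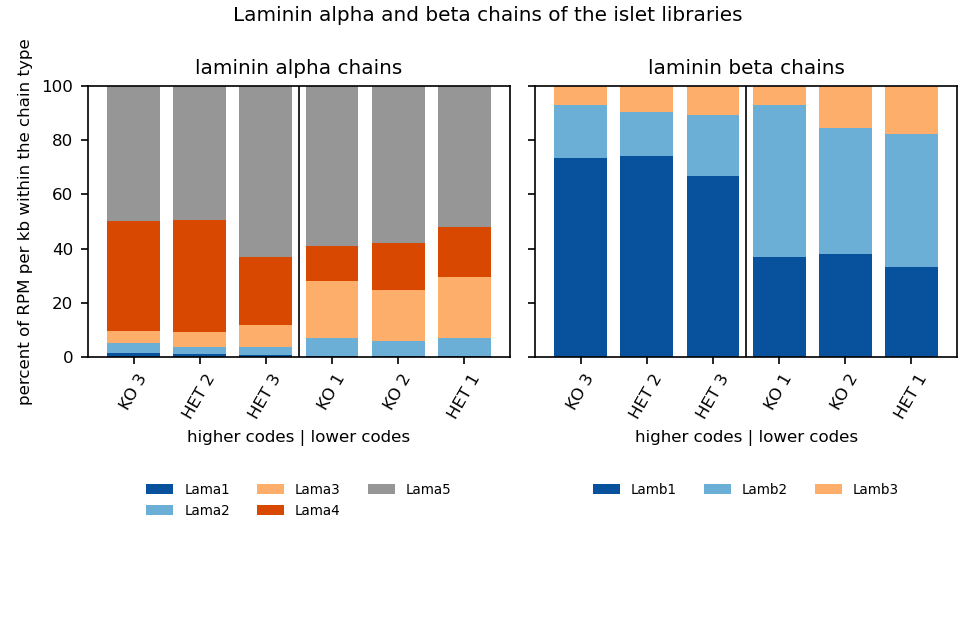
Share of each laminin gene among the alpha and among the beta chains of a library, in percent of RPM per kb of exon, with the higher animal codes left of the line and the lower codes right. Lamb1 makes up 66.9% to 74.2% of beta chains in the higher-code libraries and 33.2% to 37.8% in the lower-code libraries.

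Of 9 pairs of members within 100 kb of each other, 7 had code differences of the same sign, with no share over other gene pairs computed to set beside it. They included Col4a1 and Col4a2, Col4a3 and Col4a4, Col3a1 and Col5a2, and Col6a1 and Col6a2. They also included Col9a1, which had 3 reads in 1 library and 0 in the others, with Col19a1. The exceptions both held Col6a5, with its neighbours Col6a6 and Col6a4. Within a pair the sizes could differ. The log2 difference of higher minus lower codes was 0.32 for Col4a1 and 0.66 for Col4a2. The collagen IV pairs with starts within 1 window moved in opposite directions, Col4a1 and Col4a2 higher and Col4a3 and Col4a4 lower with the higher codes. The Col4a3 and Col4a4 levels rest on few reads, and Col4a3 reads over exons shared with an opposite-strand gene cannot be assigned.

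Among the partners of collagens and laminins, too, no gene passed the test between KO and HET islets. The counts below stand beside 51.4% of all genes tested with higher means in KO, and a median log2 difference of 0.01. For other basement membrane proteins, 0 of 13 genes tested passed, 11 had higher and 2 lower means in KO, and the median log2 difference was 0.17. The most abundant were Sparc, a collagen-binding glycoprotein, Hspg2, which encodes perlecan, and Npnt, which encodes nephronectin, with log2 differences of -0.02, 0.09 and 0.33. For collagen folding, modification and crosslinking, 0 of 22 genes tested passed, 10 had higher and 12 lower means in KO, and the median log2 difference was -0.11. P4hb, the beta subunit of prolyl 4-hydroxylase and a general disulphide isomerase, differed by -0.17, Ppib by -0.40, and Bmp1, the procollagen C-proteinase, by 0.54 (95% interval -0.03 to 1.10). Bmp1 had 129.7, 117 and 78.4 RPM in KO 1 to 3, against 90.1, 67.6 and 63.3 RPM in HET 1 to 3. It was highest in KO 1 and KO 2, and KO 3 lay below HET 1.

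For collagen and laminin receptors, 0 of 12 genes tested passed, 8 had higher and 4 lower means in KO, and the median log2 difference was 0.02. Itgb1, the beta 1 integrin common to most of these receptors, had 139, 157 and 138 RPM in KO 1 to 3, against 142, 140.2 and 141 RPM in HET 1 to 3. Ddr1, a collagen receptor kinase, and Dag1, which encodes dystroglycan, differed by -0.03 and -0.30. For matrix proteases and inhibitors, 0 of 12 genes tested passed, 10 had higher and 2 lower means in KO, and the median log2 difference was 0.26, and 7 of the 12 were lower in every higher-code library, against 16.8% of all genes tested. The same held for 5 of 9 interstitial matrix genes, 6 of 22 folding genes, 3 of 12 receptors and 1 of 13 other basement membrane proteins. In the other direction, 1 of the 12 protease and inhibitor genes and 1 of 9 interstitial matrix genes were higher in every higher-code library. So were 6 of 22 folding genes, 3 of 12 receptors and 1 of 13 other basement membrane proteins, against 31.3% of all genes tested. Timp3, a metalloprotease inhibitor bound to matrix, had 12.7, 13.04 and 16.01 RPM in KO 3, HET 2 and HET 3, against 66.1, 97.7 and 88.6 RPM in KO 1, KO 2 and HET 1. Adamts1 and Timp2 had genotype differences of 0.32 and 0.44, and Timp3 0.69. For interstitial matrix, 0 of 9 genes tested passed, 6 had higher and 3 lower means in KO, and the median log2 difference was 0.21. Thbs1, Fn1 and Bgn, which encode thrombospondin 1, fibronectin and biglycan, differed by 0.21, -0.45 and 0.15.

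Markers of the cells that can make these proteins were summed beside the members, and their part in the levels of the members was not tested. Endothelial markers summed to 321, 255 and 297 RPM in KO 1 to 3, against 278, 273 and 312 RPM in HET 1 to 3. The range of this sum was narrow across both genotypes and both code sets, but single endothelial markers differed between the code sets. Of the 12, 2 (Kdr and Eng) were higher in every higher-code library, against 31.3% of all genes tested. A further 3 (Flt1, Tie1 and Tek) were lower in every higher-code library, against 16.8%. Stellate, pericyte and fibroblast markers summed to 85.9, 110.3 and 47.3 RPM in KO 1 to 3, against 67.5, 41.5 and 40.2 RPM in HET 1 to 3, so all higher-code libraries were lower. Single markers ran both ways. The pericyte marker Rgs5 had 13.1, 8.95 and 6.88 RPM in KO 3, HET 2 and HET 3, against 59.1, 77.9 and 45.4 RPM in KO 1, KO 2 and HET 1, whereas Pdgfrb had 16.4, 16.4 and 16.1 RPM in KO 3, HET 2 and HET 3, against 4.39, 5.11 and 5.43 RPM in KO 1, KO 2 and HET 1. Schwann cell markers summed to 31.2, 44.3 and 11.9 RPM in KO 1 to 3, against 17.7, 11.5 and 11.2 RPM in HET 1 to 3. Duct markers summed to 305, 406 and 479 RPM in KO 1 to 3, against 400.1, 503 and 604 RPM in HET 1 to 3. Krt7 had the highest mean of these markers and was higher in every higher-code library, while Sox9, Krt19, Bicc1, Muc1 and Tff2, 5 of the 10 duct markers, were lower in every higher-code library. Macrophage markers summed to 119.5, 91.5 and 134 RPM in KO 1 to 3, against 91.97, 135 and 125.5 RPM in HET 1 to 3. Single macrophage markers ran both ways between the code sets. Of the 7 tested, 2 (Cd68 and Lyz2) were higher in every higher-code library, against 31.3% of all genes tested. Another 3 (Csf1r, C1qc and Adgre1) were lower in every higher-code library, against 16.8%. Of 5 mesothelial markers, Upk1b had 0 reads in every library and only Msln exceeded 1 RPM, with 62.5, 60.9 and 53.8 RPM in KO 3, HET 2 and HET 3, against 14.9, 25.8 and 24.3 RPM in KO 1, KO 2 and HET 1. None of the markers passed an adjusted p of 0.05 between KO and HET.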

How the data were processed

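The submitters' processing notes name HISAT2, DESeq2 and the genome build GRCm38 without roles or versions. Not given in the sources used here are the counter, annotation and strand setting. The authors deposited log2 values for 34245 genes in 6 libraries. Their deposited fold change (a HET to KO ratio) was left unused. Among 93645 low deposited log2 values, 100% came within 0.01 of a whole read once each library's lowest value was read as 0.9 read, so they were taken as log2 RPM and whole reads were recovered. Members were counted once, at positions identical to GENCODE M21 for 53 of 55; the other 2 were matched by symbol. Exon length is that of all M21 exons joined.

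The 14238 genes averaging 1 RPM or more were fitted as log2(RPM + 1) by limma 3.58.1 (R 4.3.3) with trend and robust moderation, and p-values were adjusted by Benjamini-Hochberg over all of them. The scripts were tested on simulated data. Replicates were numbered in record order and pair nothing; whether libraries come from separate animals rests on the animal codes, and p-values measure only the spread between these libraries. The members, lists and named genes (the 8, 6 and 4 of highest mean RPM per class, and any with an unadjusted p under 0.05) were chosen with earlier results of these data known; 1 of the 8 is not reported here but stays in the counts. Without strand information, reads over opposite-strand exons cannot be assigned. Such overlaps held at most 6.27% of a member's exons, but a share of exon length does not bound the share of reads. At Col4a3, the overlapping opposite-strand gene C430014B12Rik had a mean of 1.79 RPM, against 0.981 RPM for Col4a3. Alternatives covered scaling, filters, pseudocounts, limma-voom, moderation, covariates and each library left out.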

Additional observations from a re-analysis of the deposited data

How the results depend on the processing

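Under 17 alternatives, 0 of the 33 to 55 members tested and 0 genes in all passed the adjusted threshold, while genes with an unadjusted p under 0.05 numbered 80 to 1704, the most without HET 1. Members with an unadjusted p under 0.05 numbered 0 to 6, the most with the stellate covariate (6 of 34 members, against 474 of 14238 genes). No paired analysis was possible because the labels give no shared replicate numbers. The lowest adjusted p of a member was 0.398 by limma, without HET 1. No named gene was called. Of their values under the alternatives, 244 kept their sign and 45 changed it. With the animal codes as a block the log2 differences were 0.018 for Col4a2, -0.082 for Lama5, 0.31 for Col18a1, -0.39 for Col3a1, 0.071 for Col27a1, -0.21 for Col1a2, -0.083 for Col11a2 and 0.20 for Col6a3. With the stellate covariate they were 0.088 for Col4a2, -0.52 for Lama5, 0.69 for Col18a1, -0.22 for Col5a2, -1.26 for Col3a1, 0.082 for Col27a1, -0.79 for Col1a2, -0.15 for Col11a2, 0.30 for Col6a3 and 0.032 for Col13a1. With the acinar covariate they were -0.066 for Col3a1, -0.038 for Col1a2 and 0.055 for Col6a3. Leaving out each library in turn gave -0.29 to 0.12 for Lamc1, -0.30 to 0.36 for Lama5, -0.069 to 0.27 for Col15a1, -1.26 to 0.082 for Col18a1, -0.56 to 0.86 for Col3a1, -0.48 to 0.018 for Col27a1, -0.42 to 0.67 for Col1a2, -0.086 to 0.23 for Col11a2, -0.37 to 0.38 for Col6a6, -0.31 to 0.13 for Col6a3 and -0.23 to 0.11 for Col20a1. The cause was not tested. Without division by length the mean ratio was 1.14 for Col6a1 to Col6a2 and 19.3 for Col6a6 to Col6a1. With the length of the transcript with the longest coding sequence, chosen after seeing the data, it was 1.10 for Col6a1 to Col6a2, against 2.17 with all exons joined; that length alone sets the change.

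At these depths members under 1 RPM had few reads, and 3 libraries per group leave intervals spanning 0 for every member tested, so differences smaller than those intervals were not detectable.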
